A study of Homo sapiens with 6 samples.

Results

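The genes described here are 55 components of Wnt signalling, given by name: 10 ligands, 17 receptors and co-receptors, 9 antagonists, 9 cytoplasmic or nuclear components, 3 planar polarity genes and 7 target or feedback genes. They were read by symbol from a table of 20668 genes, which held 50 of them, and 46 had enough counts to be tested. The libraries came from SH-SY5Y, an established human neuroblastoma cell line, as 3 wild-type (WT) libraries and 3 in which DNAJC12, a gene for a J-domain co-chaperone, had been knocked out with CRISPR/Cas9. The labels list no treatment for either genotype, and the series was set up to ask how DNAJC12 bears on invasion by these cells. Separate cultures or clones, and the number of knockout clones, are not given in the sources used here. The p-values thus rest on how much these libraries vary, and that variation may be technical.

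Wnt ligands are secreted lipid-modified proteins that bind Frizzled receptors. With the co-receptors LRP5 and LRP6, they stop a cytoplasmic complex of AXIN1, APC and GSK3B from marking beta-catenin (CTNNB1) for degradation, so that beta-catenin acts with TCF and LEF factors on target genes. Other ligands, WNT5A and WNT5B among them, are best known for signalling without beta-catenin through ROR, RYK and PTK7 receptors and the planar polarity proteins, which act on cell shape and movement. Neuroblastoma arises from the neural crest, in whose formation and migration both branches take part.

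Library totals ran from 19321842 to 21869659 counts, and levels are given as CPM, counts scaled to library size. Before scaling, 1 count was worth 0.0457 to 0.0518 CPM. DNAJC12 itself fell from 21.5 ± 1.51 to 5.54 ± 0.601 CPM (SD, n = 3 each), a log2 fold change of -1.95 ± 0.13 (SE; edgeR adjusted p = 1.25e-06), with no overlap between the genotypes. The position of the guide was not known here, and reads of an edited gene can remain. Of 9 noradrenergic neuroblastoma markers 8 were present (TH was absent), and their summed level was 3175 to 3274 CPM in WT and 2623 to 2750 CPM in knockout libraries. The 6 of 9 mesenchymal-type markers present (PRRX1, MEOX1 and MEOX2 were absent) summed to 2367 to 2598 and 3696 to 3867 CPM. Schwann cell markers (4 of 5, without SOX10) summed to 7.72 to 9.68 and 7.37 to 8.35 CPM, fibroblast markers (5 of 5) to 471 to 508 and 489 to 628 CPM, and epithelial markers (5 of 5) to 12.3 to 13.5 and 81.5 to 91.5 CPM. The noradrenergic, mesenchymal-type and epithelial sums differed between genotypes without overlap, while the Schwann cell and fibroblast sums overlapped, and the part of these marker levels in the results on Wnt genes was not tested. In bulk RNA, fewer cells of a kind and less RNA per cell cannot be told apart.

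Of the 46 tested members, 17 rose and 12 fell in the knockout at an adjusted p below 0.05 in edgeR's quasi-likelihood test with Benjamini-Hochberg adjustment over 16403 genes. Together 63% of the tested members were called, where 26% of all tested genes were called. For rises the shares were 37% of members and 14.5% of all genes, and for falls 26.1% and 11.5%. At least 2-fold changes were called for 11 members, 9 higher and 2 lower, which is 23.9% of members against 9.24% of all genes (6.36% higher and 2.87% lower). The 3 knockout and 3 WT values did not overlap for 34 members (73.9%), against 41.7% of all genes. The median log2 fold change was 0.19 over the tested members and 0.00 over all genes, and the median absolute change was 0.36 and 0.22. Each of these shares was higher among the members than among all genes, for rises and for falls. The members were chosen with earlier results of these data known, so these shares are descriptions and test nothing about the pathway. The median log2 fold change of the 40 genes nearest each tested member lay between -0.15 and 0.18. Without WT replicate 2 the count of members that fell dropped from 12 to 7.

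**Figure D1:**
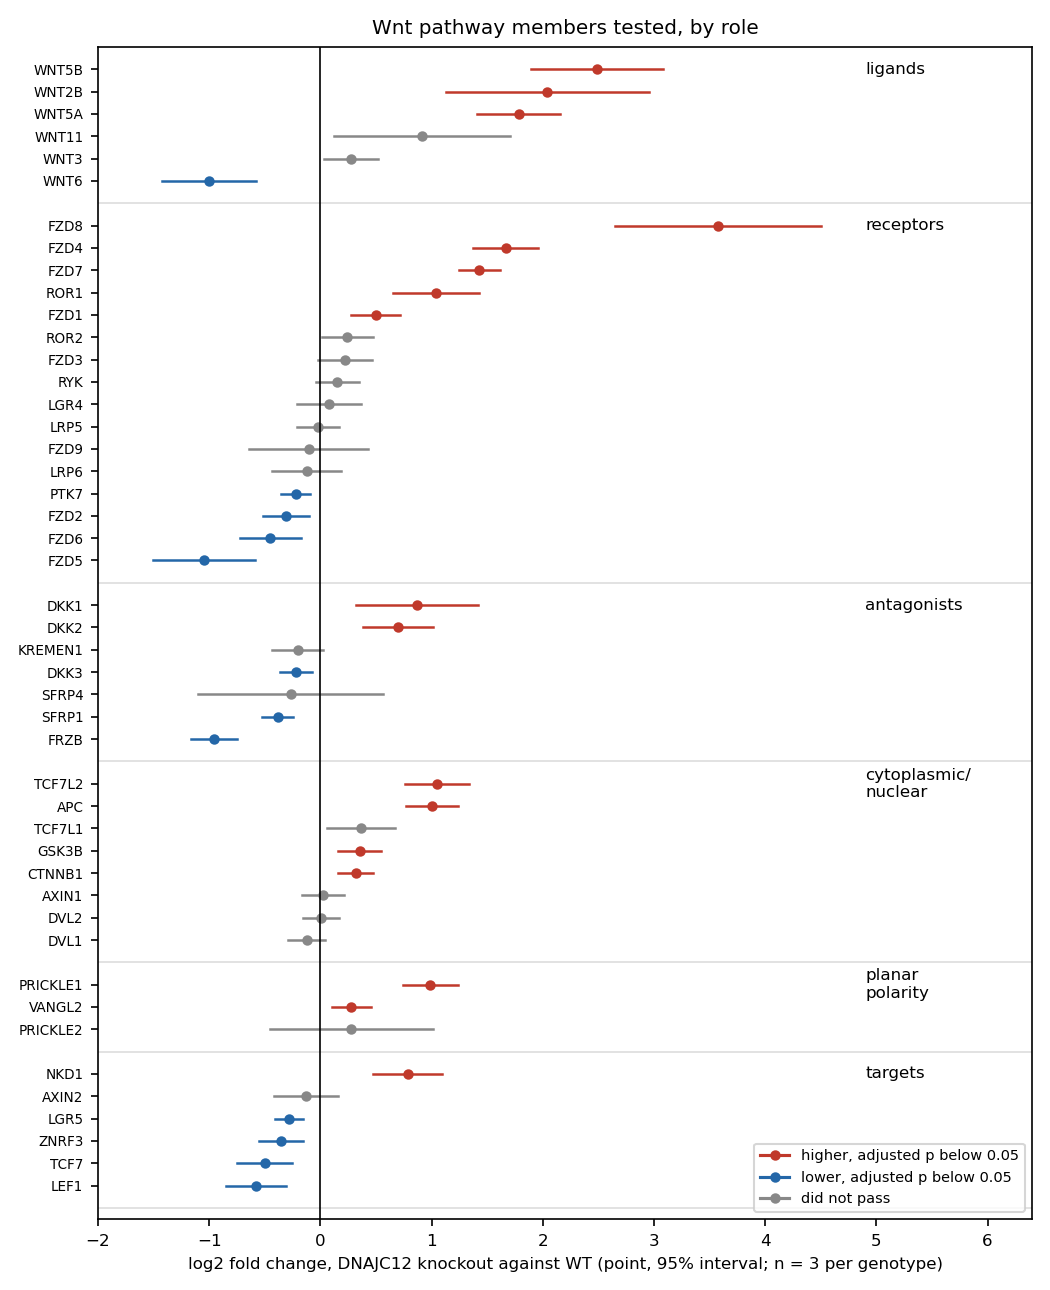
Log2 fold change in DNAJC12 knockout against WT (x axis) for the 46 tested members (rows, grouped by role), with points for the estimate and lines for the 95% interval, n = 3 libraries per genotype. Rises and falls stand side by side among ligands, receptors and antagonists, and the extremes are FZD8 at 3.58 and FZD5 at -1.05.

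Promoter sequences came from RefSeq (GRCh38.p14) as the 250 bases before to 50 bases after a transcription start. A window was found for 38 of the 55 members, and for 32 of these the window lay at the start of the annotated gene, within 1 base; the other 6 lay at another start and were not used. The 32 were searched on both strands for the TCF/LEF letters CTTTGAT and CTTTGTT, which share their first letters and cannot match at the same place, and for the TATA-box letters TATAAA. The letters CTTTGAT stood in 2.62% of 35116 promoters of that length and in 0 of the 32, CTTTGTT in 5.2% of all and in 2 of the 32 (WNT3 and DKK1), and TATAAA in 11.5% of all and in 2 of the 32 (FZD8 and DKK1). A match is a description of letters and not a binding site. The 5 promoters below are examples from 4 members that rose and 1 that fell (FRZB), with capitals for a match. WNT3, which has a match but did not pass the expression test, is not shown. In DKK1 (chr10:52314031-52314330, plus strand) CTTTGTT began 76 and TATAAA 30 bases before the start. In FZD8 (chr10:35642247-35642546, minus strand) TATAAA began 29 bases before the start. WNT5B (chr12:1616806-1617105, plus strand), TCF7L2 (chr10:112949997-112950296, plus strand) and FRZB (chr2:182866588-182866887, minus strand) had no match in this window. The windows lie at RefSeq starts, and reads can come from transcripts that start elsewhere. FRZB-201, the transcript given 100% of the FRZB level in every library, starts at 182867162, upstream of the FRZB window. The bases before that start were not searched.
DKK1: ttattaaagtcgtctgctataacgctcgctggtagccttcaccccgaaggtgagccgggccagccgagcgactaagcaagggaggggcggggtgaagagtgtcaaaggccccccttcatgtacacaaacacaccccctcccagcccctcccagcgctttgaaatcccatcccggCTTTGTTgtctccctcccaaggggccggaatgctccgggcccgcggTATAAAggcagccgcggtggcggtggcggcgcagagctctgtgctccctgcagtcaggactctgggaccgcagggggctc
FZD8: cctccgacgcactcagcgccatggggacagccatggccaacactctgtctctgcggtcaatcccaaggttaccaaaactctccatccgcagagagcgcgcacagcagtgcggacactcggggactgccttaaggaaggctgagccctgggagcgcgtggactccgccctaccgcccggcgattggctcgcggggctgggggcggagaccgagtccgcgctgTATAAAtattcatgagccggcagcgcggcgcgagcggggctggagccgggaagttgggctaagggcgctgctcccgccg
WNT5B: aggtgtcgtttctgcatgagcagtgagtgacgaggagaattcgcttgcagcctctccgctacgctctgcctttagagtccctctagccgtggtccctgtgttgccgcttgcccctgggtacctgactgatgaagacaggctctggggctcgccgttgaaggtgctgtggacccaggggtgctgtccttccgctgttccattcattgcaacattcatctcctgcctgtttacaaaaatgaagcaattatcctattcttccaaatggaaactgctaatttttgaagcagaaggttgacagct
TCF7L2: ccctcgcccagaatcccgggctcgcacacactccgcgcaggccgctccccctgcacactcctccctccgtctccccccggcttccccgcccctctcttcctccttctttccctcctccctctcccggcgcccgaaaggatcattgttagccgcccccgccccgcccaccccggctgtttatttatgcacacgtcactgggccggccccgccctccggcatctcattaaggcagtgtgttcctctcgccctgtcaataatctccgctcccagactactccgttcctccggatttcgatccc
FRZB: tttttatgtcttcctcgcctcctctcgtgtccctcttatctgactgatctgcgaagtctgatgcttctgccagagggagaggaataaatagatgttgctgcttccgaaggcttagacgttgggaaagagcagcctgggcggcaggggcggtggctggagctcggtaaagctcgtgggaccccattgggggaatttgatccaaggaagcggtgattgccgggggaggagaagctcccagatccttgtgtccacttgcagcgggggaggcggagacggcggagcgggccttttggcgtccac

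Among the ligands, the data showed a change in which Wnt RNAs were made. WNT5A, WNT5B and WNT2B rose, WNT6 fell, and WNT3 and WNT11 did not pass the test. WNT5A (ENSG00000114251, chr3:55465715-55505263, minus strand), the best-studied ligand of the beta-catenin-independent branch, was at 5.66, 8.53 and 5.22 CPM in the WT libraries and at 21.1, 23.2 and 22.5 CPM in the knockout libraries. Every knockout value exceeded the highest WT value by more than the WT spread, and the log2 fold change was 1.78 ± 0.17 (SE; edgeR adjusted p = 2.14e-05). Its paralogue WNT5B (ENSG00000111186, chr12:1617056-1647212, plus strand) was at 1.26, 0.914 and 1.94 CPM in WT and 6.67, 7.80 and 8.68 CPM in the knockout, a log2 fold change of 2.49 ± 0.27 (SE; edgeR adjusted p = 5.36e-05). The groups lay well apart for this gene too. WNT2B (ENSG00000134245, chr1:112466541-112530165, plus strand), a ligand of the beta-catenin branch, was at 1.07, 0.305 and 0.665 CPM in WT and 3.11, 3.13 and 2.24 CPM in the knockout. Its WT values varied widely at this low level, yet the groups did not overlap and the log2 fold change was 2.04 ± 0.41 (SE; edgeR adjusted p = 0.00407).

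WNT6 (ENSG00000115596, chr2:218859805-218874233, plus strand), which is known from epithelial and neural crest development, went the other way. It was at 16.0, 12.3 and 9.77 CPM in WT and 6.21, 5.54 and 7.28 CPM in the knockout, a log2 fold change of -1.0 ± 0.19 (SE; edgeR adjusted p = 0.00286). The lowest WT value stayed above the highest knockout value. WNT3, another ligand of the beta-catenin branch, was at 19.6, 17.6 and 18.0 CPM in WT and 22.5, 19.9 and 24.5 CPM in the knockout. These values did not overlap, but the difference did not pass (log2 fold change 0.28 ± 0.11, SE; edgeR adjusted p = 0.0927), and without knockout replicate 2 it did (0.35; adjusted p = 0.0311). WNT11, a ligand of convergent cell movements, was at 0.581, 1.01 and 0.716 CPM in WT and 1.63, 1.40 and 1.35 CPM in the knockout and did not pass (log2 fold change 0.92 ± 0.36, SE; edgeR adjusted p = 0.0874). Over the 6 tested ligands the median log2 fold change was 1.35. For all 6 the genotypes did not overlap, which held for 41.7% of all tested genes.

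Levels of different genes were compared per length, as TPM (abundance scaled to transcript length and library size) from the transcript files. WNT6 made up 75.6 ± 4.33% of the ligand TPM in WT libraries and 31.4 ± 1.56% in knockout libraries (SD, n = 3 each; WNT3 is left out, since its transcripts could not be assigned). WNT5A went from 11.4 ± 2.18% to 28.6 ± 3.20% and WNT5B from 6.24 ± 2.16% to 28.4 ± 2.98%. In counts WNT3 was at 18.4 ± 1.05 CPM in WT and WNT6 at 12.7 ± 3.12 CPM, so the place of WNT3 per length was not known. Among the other ligands the order in WT was clear, with WNT6 at 13.5 ± 3.37 TPM, WNT5A at 2.0 ± 0.406 and WNT5B at 1.06 ± 0.151. In the knockout the 3 ligands stood at 6.4 ± 0.808, 5.80 ± 0.417 and 5.80 ± 1.02 TPM and did not differ from each other beyond their spread. The sum over 9 ligands was 17.7 ± 3.46 TPM in WT and 20.3 ± 1.57 TPM in the knockout, and these ranges overlapped. A single summed value over 3 against 3 libraries can reach an exact two-sided permutation p of 0.10 at best, so the sums and shares are given without a test.

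**Figure D2:**
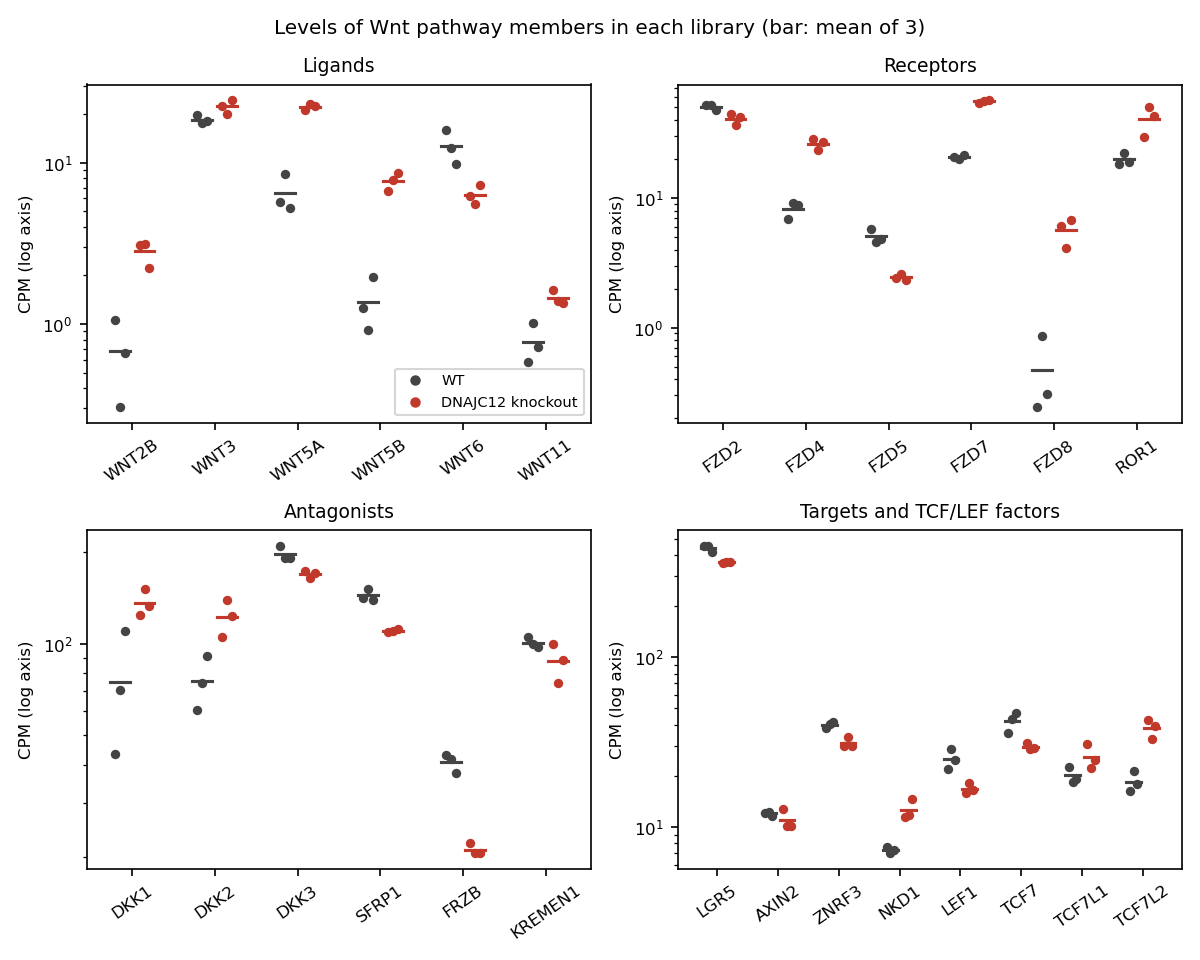
CPM on a log axis in each library (points; WT grey, DNAJC12 knockout red) with the mean of 3 as a bar, for ligands, receptors, antagonists, and targets with TCF/LEF factors. The genotypes separate fully for WNT5A, WNT5B, WNT6, FZD4, FZD5, FZD7, FZD8, ROR1 and FRZB, and overlap for AXIN2, KREMEN1 and TCF7L1.

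The receptors divided by gene as well: of 16 tested, FZD1, FZD4, FZD7, FZD8 and ROR1 rose, FZD2, FZD5, FZD6 and PTK7 fell, and 7 did not pass. The shares were 31.2% higher and 25% lower, against 14.5% and 11.5% of all tested genes. FZD7 (ENSG00000155760, chr2:202033855-202038441, plus strand), a Frizzled of both branches, was at 20.8, 19.9 and 21.6 CPM in WT and 54.1, 56.3 and 57.2 CPM in the knockout, a log2 fold change of 1.43 ± 0.08 (SE; edgeR adjusted p = 5.92e-07). Both groups were tight, and the gap between them was many times their spread. FZD8 (ENSG00000177283, chr10:35638247-35642296, minus strand) was nearly silent in WT at 0.242, 0.863 and 0.307 CPM and reached 6.06, 4.14 and 6.76 CPM in the knockout. Its summed counts went from 28 to 350, a ratio of 12.1 (exact 95% interval 8.23 to 18.5, counting error only), and its log2 fold change was 3.58 ± 0.42 (SE; edgeR adjusted p = 0.000101). WT replicate 2 held most of the WT counts, and without it the log2 fold change was 4.33. FZD4 (ENSG00000174804, chr11:86945679-86955395, minus strand), also the receptor for norrin, was at 6.92, 9.08 and 8.85 CPM in WT and 28.4, 23.6 and 26.8 CPM in the knockout, a log2 fold change of 1.67 ± 0.13 (SE; edgeR adjusted p = 6.26e-06). PRSS23, a protease gene that overlaps FZD4 on the opposite strand, also rose (log2 fold change 2.96, edgeR adjusted p = 1.59e-06), and if reads were counted without strand, those of the overlap cannot be told apart.

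FZD5 (ENSG00000163251, chr2:207762598-207769906, minus strand), a Frizzled of the beta-catenin branch, fell from 5.71, 4.57 and 4.86 CPM to 2.39, 2.60 and 2.33 CPM, a log2 fold change of -1.05 ± 0.21 (SE; edgeR adjusted p = 0.00340). The knockout values were close together and all below the lowest WT value. FZD1 rose from 21.6, 21.4 and 25 CPM to 30.3, 32.7 and 32.8 CPM (log2 fold change 0.50 ± 0.10, SE; edgeR adjusted p = 0.00361). FZD2 went from 51.8, 52.3 and 48.1 CPM to 44.4, 36.5 and 41.8 CPM, a log2 fold change of -0.31 ± 0.09 (SE; edgeR adjusted p = 0.0300). The groups did not overlap for either gene. FZD6, which acts in planar polarity, went from 16.8, 17.2 and 15.4 CPM to 10.3, 12.6 and 13.2 CPM (log2 fold change -0.45 ± 0.12, SE; edgeR adjusted p = 0.0209). FZD2 did not pass without WT replicate 1, WT replicate 2, knockout replicate 2 or knockout replicate 3 (log2 fold changes of -0.30, -0.29, -0.24 and -0.33; adjusted p of 0.0956, 0.110, 0.0570 and 0.0870), nor with counts corrected for transcript length (0.0701). FZD6 did not pass without WT replicate 1 or 2 (-0.44 and -0.43; adjusted p of 0.0670 and 0.0804), nor with length-corrected counts (0.0566). FZD3 had a log2 fold change of 0.22 (edgeR adjusted p = 0.175) and FZD9 of -0.11 (edgeR adjusted p = 0.799), and neither passed.

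Per length, the Frizzled genes changed order, and their sum was higher in the knockout. The summed Frizzled level was 50.4, 52.7 and 48.9 TPM in WT and 62.1, 61.5 and 61.8 TPM in the knockout, without overlap. FZD2 led in every WT library with 37.7 ± 1.34% of Frizzled TPM, and its share was 23.8 ± 1.93% in the knockout (SD, n = 3 each). FZD7 led in every knockout library with 28.1 ± 1.1%, from 13.4 ± 0.841% in WT. FZD6 went from 14.1 ± 1.1% to 7.89 ± 1.05%, FZD4 from 2.97 ± 0.387% to 7.40 ± 0.602% and FZD8 from 0.379 ± 0.263% to 3.58 ± 0.804%. The shares of FZD1 (10.0 ± 0.989% and 11.1 ± 0.596%) and FZD3 (13.1 ± 2.24% and 12.9 ± 3.40%) lay within their spread. FZD3-203, a transcript of 580 bases with 14 to 36 estimated reads per library, supplied 45.9% to 64.2% of FZD3 TPM. The FZD3 share and its part of the Frizzled sum thus rest largely on few reads.

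**Figure D3:**
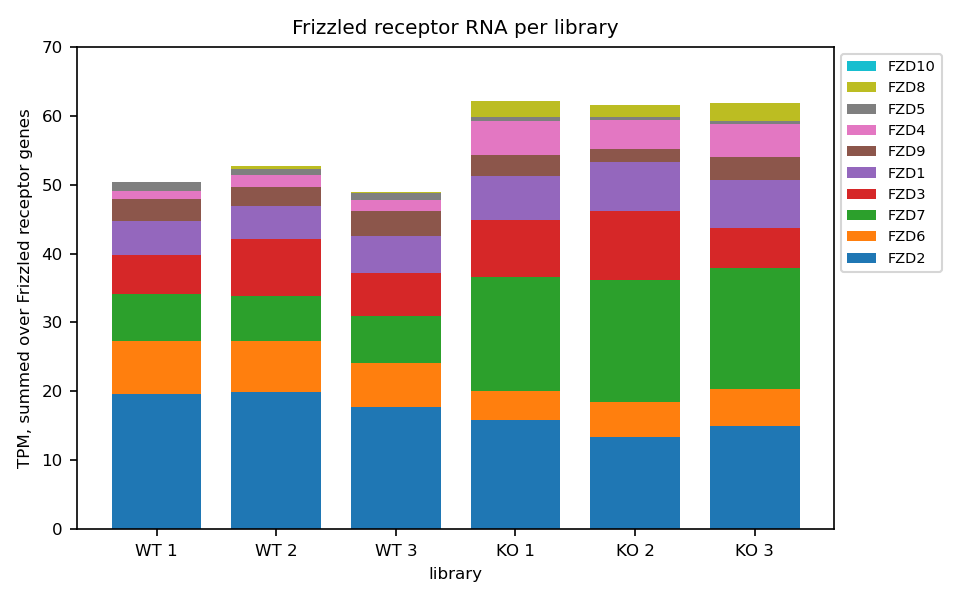
Summed TPM of the Frizzled receptor genes in each library (stacked bars, y axis from 0), split by gene. FZD2 forms the largest part of each WT bar and FZD7 the largest part of each knockout bar, and the 3 knockout bars (61.5 to 62.1 TPM) exceed the 3 WT bars (48.9 to 52.7 TPM).

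The receptors of the beta-catenin-independent branch did not move as a group. ROR1 (ENSG00000185483, chr1:63774017-64181498, plus strand), a WNT5A receptor and pseudokinase, rose from 18.4, 22.3 and 19 CPM to 29.3, 50.2 and 43.2 CPM, a log2 fold change of 1.04 ± 0.18 (SE; edgeR adjusted p = 0.00128). Knockout replicate 1 stood lower than the other two but above every WT value. Its paralogue ROR2 was at 19.1, 19.5 and 18.6 CPM in WT and 24.3, 20.2 and 23.0 CPM in the knockout and did not pass (log2 fold change 0.24, edgeR adjusted p = 0.119; 0.0389 without knockout replicate 2). RYK, an atypical Wnt receptor kinase, was at 73.4, 83.3 and 75.2 CPM in WT and 79.0, 94.3 and 84.1 CPM in the knockout, with overlap (log2 fold change 0.15, edgeR adjusted p = 0.242). PTK7, a planar polarity co-receptor and the most abundant receptor member per length, was at 222, 224 and 223 CPM in WT and 188, 197 and 189 CPM in the knockout. Its groups were tight and apart, yet the fall was small (log2 fold change -0.22 ± 0.06, SE; edgeR adjusted p = 0.0158) and did not pass without WT replicate 1, WT replicate 2 or knockout replicate 3 (adjusted p of 0.0549, 0.0648 and 0.0984) or with length-corrected counts (0.0588). Per length PTK7 was at 76.3 ± 3.40 TPM in WT and 63.5 ± 1.23 TPM in the knockout, ROR1 at 5.89 ± 0.674 and 10.8 ± 2.91 TPM.

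The co-receptors that every beta-catenin signal needs gave no call. LRP5 was at 82.7, 83.8 and 79.9 CPM in WT and 86.8, 71.2 and 85.2 CPM in the knockout (log2 fold change -0.02, 95% interval -0.21 to 0.17; edgeR adjusted p = 0.904). LRP6 was at 65.9, 62.7 and 45.6 CPM in WT and 45.7, 57.5 and 56.8 CPM in the knockout (log2 fold change -0.12, 95% interval -0.43 to 0.19; edgeR adjusted p = 0.579). Both overlapped between genotypes. LGR4, a receptor for R-spondins, which enhance Wnt signals, had a log2 fold change of 0.07 (edgeR adjusted p = 0.732).

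The antagonists changed in both directions: of 7 tested, the Dickkopf genes DKK1 and DKK2 rose, and DKK3, SFRP1 and FRZB fell. Rises made up 28.6% and falls 42.9% of these 7, where 14.5% of all tested genes rose and 11.5% fell. FRZB, a secreted Frizzled-related protein that binds Wnt ligands, was at 43.1, 41.8 and 37.6 CPM in WT and 22.1, 20.5 and 20.5 CPM in the knockout, a log2 fold change of -0.96 ± 0.09 (SE; edgeR adjusted p = 2.75e-05). SFRP1, of the same family, went from 142, 151 and 139 CPM to 109, 110 and 112 CPM (log2 fold change -0.39 ± 0.06, SE; edgeR adjusted p = 0.00119). In both genes all 3 knockout libraries lay below all 3 WT libraries and were close to each other. DKK2, which binds LRP5 and LRP6, rose from 60.8, 74.4 and 91.5 CPM to 106, 139 and 123 CPM (log2 fold change 0.70 ± 0.14, SE; edgeR adjusted p = 0.00416). DKK1, the best-known inhibitor of these co-receptors and itself a Wnt target, was at 43.5, 70.7 and 110 CPM in WT and 124, 151 and 134 CPM in the knockout. The WT spread of DKK1 was wide, WT replicate 3 came close to the lowest knockout library, and the log2 fold change was 0.87 ± 0.25 (SE; edgeR adjusted p = 0.0258). That call was lost with DESeq2 (adjusted p = 0.0763), with length-corrected counts (0.0594), and when WT replicate 2 (0.0977) or knockout replicate 3 (0.0609) was left out. For DKK1 and DKK2 alike, WT replicate 1 was the lowest and WT replicate 3 the highest WT library.

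DKK3, a divergent Dickkopf that does not act like DKK1 on LRP6, went from 210, 191 and 191 CPM to 174, 165 and 171 CPM (log2 fold change -0.22 ± 0.07, SE; edgeR adjusted p = 0.0307). The groups did not overlap, but without WT replicate 1, WT replicate 2, knockout replicate 2 or knockout replicate 3 the adjusted p was 0.141, 0.0643, 0.0514 and 0.118. With counts from the transcript files it was 0.301 when summed and 0.415 when corrected for length. KREMEN1, a DKK receptor, was at 106, 99.7 and 97.5 CPM in WT and 100, 74.1 and 88.4 CPM in the knockout and did not pass (log2 fold change -0.21, edgeR adjusted p = 0.175; 0.0223 without knockout replicate 1). SFRP4 stayed near 1 CPM in both genotypes (log2 fold change -0.27, edgeR adjusted p = 0.660), and EPDR1, which overlaps it on the other strand, fell (log2 fold change -0.58, edgeR adjusted p = 0.000391). Per length, DKK1 and DKK2 together stood at 86.2, 119.9 and 173.4 TPM in WT and 188.1, 237.0 and 210.1 TPM in the knockout. SFRP1 and FRZB together stood at 69.7, 71.8 and 63.5 TPM in WT and 44.3, 44.5 and 44.5 TPM in the knockout. The 2 sums moved apart without overlap between genotypes, the DKK sum higher and the SFRP1 and FRZB sum lower in the knockout.

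**Figure D4:**
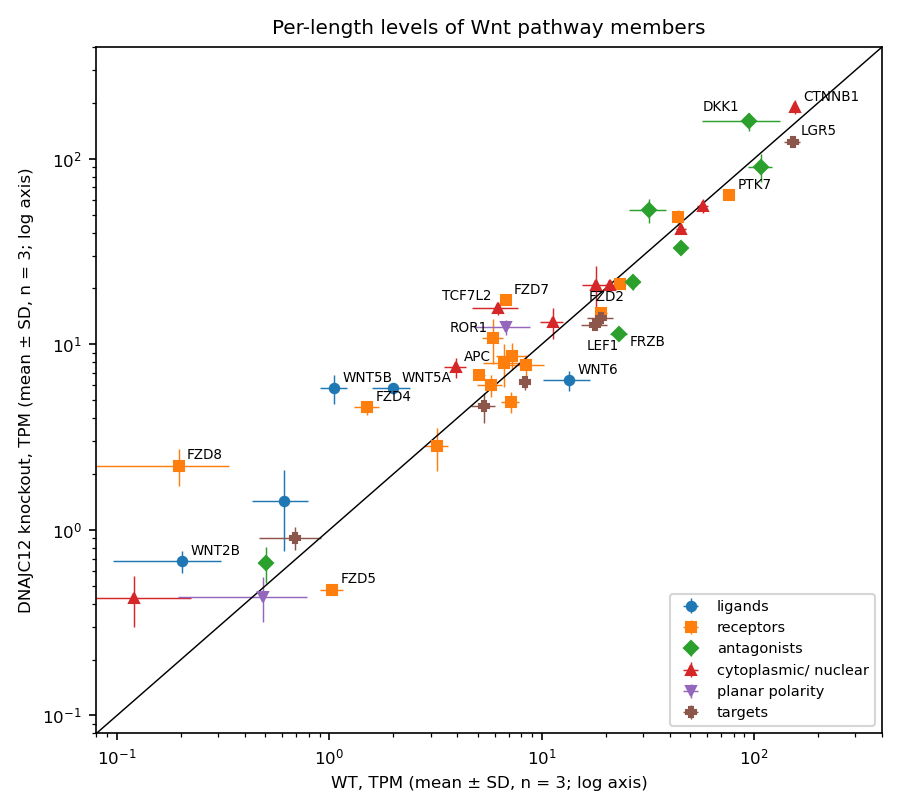
Mean TPM per gene in WT (x axis) and knockout (y axis), both on log axes, with SD bars over 3 libraries, for the 45 members with usable values above 0.1 TPM in both genotypes. The diagonal marks equal levels: WNT5B, WNT5A, FZD8, FZD4 and FZD7 lie above it, WNT6, FZD5 and FRZB below it, and CTNNB1, DKK1 and LGR5 are among the most abundant.

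Of 8 tested cytoplasmic and nuclear components 4 rose (APC, TCF7L2, GSK3B and CTNNB1) and 0 fell. These are 50% and 0%, against 14.5% and 11.5% of all tested genes, and 8 genes are few for a share. APC (ENSG00000134982, chr5:112707498-112846239, plus strand), the scaffold of the destruction complex, was at 29, 31.2 and 25.6 CPM in WT and 53.5, 64.0 and 54.3 CPM in the knockout, a log2 fold change of 1.0 ± 0.11 (SE; edgeR adjusted p = 4.67e-05). CTNNB1, which encodes beta-catenin and was the most abundant member per length in both genotypes (155 ± 2.39 and 191 ± 16.0 TPM), was at 327, 332 and 347 CPM in WT and 391, 458 and 405 CPM in the knockout. The genotypes did not overlap for either gene, and the change in CTNNB1 was the smaller (log2 fold change 0.32 ± 0.07, SE; edgeR adjusted p = 0.00696). GSK3B, the kinase that marks beta-catenin, went from 92.1, 96.3 and 87.6 CPM to 104, 129 and 119 CPM (log2 fold change 0.35 ± 0.09, SE; edgeR adjusted p = 0.0122). Its call was lost without WT replicate 3 or knockout replicate 3 (adjusted p of 0.0610 and 0.0579) and with counts from the transcript files (0.163 summed, 0.335 corrected for length).

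The other core components among the members, DVL1, DVL2 and AXIN1, gave values near 0 change and did not pass. DVL1, a Dishevelled that carries the signal from Frizzled, was at 73.9, 73.6 and 82.3 CPM in WT and 70.7, 68.1 and 71.9 CPM in the knockout, without overlap (log2 fold change -0.12, edgeR adjusted p = 0.262). Its paralogue DVL2 was at 98.1, 90.3 and 102 CPM in WT and 101, 94.1 and 96.8 CPM in the knockout (log2 fold change 0.01, 95% interval -0.15 to 0.17; edgeR adjusted p = 0.960). AXIN1, the limiting scaffold of the destruction complex, had a log2 fold change of 0.02 (95% interval -0.17 to 0.21; edgeR adjusted p = 0.886). The signs of DVL2 and AXIN1 turned when library size alone set the scale. DVL3, a Dishevelled outside the members, fell from 273 ± 5.53 to 214 ± 8.65 CPM (SD), without overlap. Its log2 fold change was -0.35 ± 0.06 (SE, edgeR adjusted p = 0.00142). The genes around DVL3 had a median log2 fold change of -0.42, and their part in its fall was not tested.

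The TCF and LEF factors, which carry beta-catenin to DNA, changed in opposite directions. TCF7L2 (ENSG00000148737, chr10:112950247-113167678, plus strand) was at 16.2, 21.3 and 18.0 CPM in WT and 42.5, 32.8 and 39.5 CPM in the knockout, a log2 fold change of 1.05 ± 0.13 (SE; edgeR adjusted p = 0.00016). LEF1, itself a target of the pathway, went from 21.9, 28.8 and 24.6 CPM to 15.8, 18.1 and 16.5 CPM (log2 fold change -0.58 ± 0.12, SE; edgeR adjusted p = 0.00497). TCF7, also a target, went from 35.6, 43.4 and 47.1 CPM to 31.3, 28.7 and 29.1 CPM (log2 fold change -0.50 ± 0.11, SE; edgeR adjusted p = 0.00679). For each of the 3 genes the genotypes did not overlap. TCF7L1, known mainly as a repressor, was at 22.6, 18.4 and 19.3 CPM in WT and 31.0, 22.1 and 24.7 CPM in the knockout, with overlap, and did not pass (log2 fold change 0.36, edgeR adjusted p = 0.0799; 0.0220 without knockout replicate 2). Per length the 4 factors summed to 54.2 ± 2.0 TPM in WT and 55.5 ± 4.99 TPM in the knockout, and within that sum TCF7L2 went from 11.4 ± 2.62% to 28.2 ± 0.238%. LEF1 went from 32.8 ± 4.47% to 23.1 ± 1.69% and TCF7 from 35 ± 4.21% to 25 ± 0.852%. The transcripts that could be assigned held 75.5% of the TCF7L2 counts over all libraries, and its TPM leaves out the rest. By library they held 186 of 335, 271 of 419 and 247 of 352 counts in WT. In the knockout they held 713 of 835, 498 of 682 and 705 of 847. The TPM and share of TCF7L2 thus leave out more in WT and make its rise look larger than in counts. With counts corrected for transcript length, LEF1 and TCF7 no longer passed (adjusted p of 0.0645 and 0.0863).

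The targets and feedback genes did not move together. AXIN2, the most widely used readout of beta-catenin signalling, was at 12.2, 12.3 and 11.6 CPM in WT and 12.8, 10.1 and 10.1 CPM in the knockout, with overlap (log2 fold change -0.13, 95% interval -0.42 to 0.16; edgeR adjusted p = 0.533). Beside LEF1 and TCF7, the R-spondin receptor gene LGR5 and the ubiquitin ligase gene ZNRF3 fell, and NKD1, a feedback inhibitor that binds Dishevelled, rose. LGR5 was at 454, 451 and 417 CPM in WT and 357, 365 and 365 CPM in the knockout (log2 fold change -0.28 ± 0.06, SE; edgeR adjusted p = 0.00452). It was the second most abundant member per length in WT at 152 ± 13.5 TPM, against 124 ± 3.40 TPM in the knockout. TSPAN8, which overlaps LGR5 on the opposite strand, fell more (log2 fold change -1.32, edgeR adjusted p = 3.40e-07), and the part of its reads in the LGR5 result was not tested. ZNRF3, which removes Frizzled receptors from the surface, went from 38.3, 40.2 and 41.7 CPM to 29.9, 34.1 and 30.1 CPM (log2 fold change -0.35 ± 0.09, SE; edgeR adjusted p = 0.0147). The groups did not overlap, yet without WT replicate 2, WT replicate 3 or knockout replicate 3 the adjusted p was 0.0587, 0.0549 and 0.0830. NKD1 was at 7.65, 7.0 and 7.31 CPM in WT and 11.4, 11.8 and 14.6 CPM in the knockout (log2 fold change 0.78 ± 0.14, SE; edgeR adjusted p = 0.00175). With counts corrected for transcript length, NKD1 and LGR5 did not pass (adjusted p of 0.228 and 0.0528). Over the 6 tested genes 4 fell and 1 rose, with a median log2 fold change of -0.32. Falls were 66.7% and rises 16.7% of these 6, against 11.5% and 14.5% of all tested genes.

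Among the planar polarity members, PRICKLE1, a cytoplasmic core component, rose from 20.9, 18.0 and 16.1 CPM to 34.5, 37.8 and 37.0 CPM (log2 fold change 0.99 ± 0.11, SE; edgeR adjusted p = 7.79e-05). All knockout values were well above all WT values. VANGL2, its membrane partner, went from 106, 109 and 95.7 CPM to 134, 118 and 125 CPM (log2 fold change 0.28 ± 0.08, SE; edgeR adjusted p = 0.0229). That smaller rise did not pass without WT replicate 1, 2 or 3 or knockout replicate 3 (adjusted p of 0.0569, 0.0502, 0.0835 and 0.0867), nor with library size alone as the scale (0.0692). PRICKLE2 was at 2.52, 2.69 and 1.38 CPM in WT and 3.26, 2.89 and 1.87 CPM in the knockout and did not pass (log2 fold change 0.28, edgeR adjusted p = 0.600).

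The 9 members outside the filtered test had few or no counts. In the table but below the filter on low counts were WNT4 (0, 8 and 3 counts in WT; 1, 1 and 4 in the knockout), WNT7B (0, 0 and 4; 4, 4 and 5), WNT16 and NKD2. WNT16 had 14, 6 and 5 counts in WT and 0, 0 and 1 in the knockout, a WT to knockout ratio of 25.8 (exact 95% interval 4.22 to 1060, counting error only). NKD2, the paralogue of NKD1, had 4, 2 and 1 counts in WT and 10, 9 and 16 in the knockout, a ratio of 4.84 (2.12 to 12.9). Neither pair of groups overlapped. With no filter, WNT16 and NKD2 passed in edgeR (adjusted p of 0.0208 and 0.0482), and WNT4 and WNT7B did not (0.668 and 0.421). WNT10B, FZD10, SFRP2, WIF1 and RNF43, a partner of ZNRF3, did not reach the gene table, whose lowest row total was 10 counts. In the transcript files WNT10B had 7 estimated reads over all 6 libraries, RNF43 had 1.14, and FZD10, SFRP2 and WIF1 had 0. A count of 0 allows up to 3 counts in a library, or 0.137 to 0.155 CPM.

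A further 112 genes of the pathway were listed by role, and 87 of them were tested. Of these 27 rose and 14 fell (47.1% called, against 26% of all genes), with a median log2 fold change of 0.15. Rises and falls were counted for 2 and 0 of 7 other ligands and secretion genes and 2 and 3 of 9 receptors. For antagonists they were 3 and 3 of 7. For cytoplasmic or nuclear genes they were 7 and 3 of 32, and for planar polarity genes 6 and 1 of 16. Of 16 targets 7 rose and 4 fell. Over all tested genes 14.5% rose and 11.5% fell. The ligand and secretion genes (28.6% called) and the cytoplasmic or nuclear genes (31.2% called) lay near the share of all genes. The machinery that exports every Wnt gave no call: WLS, the Wnt carrier, was at 109 ± 3.80 CPM in WT and 101 ± 4.87 CPM in the knockout (SD, n = 3 each; log2 fold change -0.12, edgeR adjusted p = 0.247). PORCN, which attaches the lipid, was at 8.70 ± 0.466 and 8.50 ± 0.604 CPM (log2 fold change -0.03, edgeR adjusted p = 0.889). Without WT replicate 2 the count of these genes that fell was 9.

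Among the receptors, 2 glypicans, cell-surface proteoglycans that bind Wnts, changed in opposite directions. GPC3 was at 229, 210 and 200 CPM in WT and 104, 89.5 and 97.6 CPM in the knockout (log2 fold change -1.14 ± 0.08, SE; edgeR adjusted p = 2.16e-06). GPC6 was at 54.2, 53.5 and 48.9 CPM in WT and 97.1, 102 and 93.4 CPM in the knockout (0.90 ± 0.08, SE; edgeR adjusted p = 8.70e-06). CELSR1, a planar polarity cadherin, fell by 0.97 on the log2 scale (edgeR adjusted p = 3.26e-05); with counts summed from the transcript files the value was -2.23 and did not pass (adjusted p = 0.0632). Among antagonists DRAXIN, which binds LRP6, rose from 4.25 ± 0.194 to 11.6 ± 0.684 CPM (log2 fold change 1.44, edgeR adjusted p = 2.37e-05). APCDD1, a membrane inhibitor, went from 1 count over the WT libraries to 63 over the knockout libraries, a ratio of 61.0 (exact 95% interval 10.6 to 2449, counting error only). Its fit passed (edgeR adjusted p = 0.000745), and the only WT count lay in WT replicate 3, without which the log2 fold change was 7.40 in place of 5.50. WNT9A (0.151 ± 0.135 to 1.07 ± 0.179 CPM; log2 fold change 2.78, and 3.73 without WT replicate 2) and the R-spondin gene RSPO4 (0.231 ± 0.201 to 1.87 ± 0.610 CPM; 2.97) rose from near the detection limit (edgeR adjusted p of 0.00415 and 0.00618).

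In the cytoplasm and nucleus, DACT1, a Dishevelled-binding regulator, rose from 0.351 ± 0.155 to 4.79 ± 0.794 CPM (log2 fold change 3.75, edgeR adjusted p = 2.01e-05). The corepressor gene TLE1 (log2 fold change 0.71, edgeR adjusted p = 6.01e-05) and APC2, the neural paralogue of APC (0.59, edgeR adjusted p = 0.000113), also rose. All 3 JNK kinase genes, which act downstream in the planar polarity branch, were higher: MAPK8 by 0.59, MAPK9 by 0.83 and MAPK10 by 1.04 on the log2 scale (edgeR adjusted p of 0.000391, 7.47e-05 and 0.000130). The genes around MAPK9 on chromosome 5 had a median log2 fold change of 0.68, close to that of MAPK9 itself, and their part in its rise was not tested. Targets went both ways. CCND1, which encodes cyclin D1, was at 620, 805 and 969 CPM in WT and 421, 442 and 442 CPM in the knockout (log2 fold change -0.88 ± 0.13, SE; edgeR adjusted p = 0.000488). TNFRSF19 was at 1.40, 2.23 and 1.99 CPM in WT and 14.4, 24.6 and 21.1 CPM in the knockout (3.42 ± 0.24, SE; edgeR adjusted p = 2.30e-06), and TBX3, a T-box factor, was at 19.8, 29.2 and 40.5 CPM in WT and 75.4, 77.0 and 80.6 CPM in the knockout (1.38 ± 0.19, SE; edgeR adjusted p = 0.000385). CDX1, a homeobox target, fell from 1.59 ± 0.288 to 0.296 ± 0.159 CPM (log2 fold change -2.41, edgeR adjusted p = 0.00266). None of these groups overlapped, and for CCND1 and TBX3, as for DKK1 and DKK2, WT replicate 1 was the lowest and WT replicate 3 the highest WT library.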

How the data were processed

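Per the labels' protocols, libraries were stranded and depleted of ribosomal RNA. Salmon 1.10.0, cutadapt 3.5, FastQC, DESeq2 1.42.1 and GRCh38.p14 appear in the submitters' processing notes, with no role for each. The annotation release and strand setting are not given in the sources used here. The deposited gene table holds estimated counts rounded to whole counts. Per the file headers, the deposited transcript files hold estimated counts, TPM, and length and effective length for 251955 transcripts. The table's 403 repeated rows were removed.

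All genes were fitted with edgeR 4.0.16 (R 4.3.3): filterByExpr, TMM scaling, a two-sided quasi-likelihood F-test of genotype, Benjamini-Hochberg adjustment, threshold 0.05. CPM values are TMM-scaled. Intervals of fold changes are at 95%, and intervals of ratios are exact binomial, covering counting error only. TPM were summed per gene through GENCODE 29, which held 201667 transcripts and 94.15% to 94.59% of reads. WNT3 and VANGL2 had under 70% of their counts matched and got no TPM. Neighbouring genes were those above 4 CPM. Replicates of a genotype differed by more than counting noise (chi-square per gene 4.37 to 22.69), so none was a copy of another, and all 6 were kept. Knockout replicates 1 and 2 differed most (22.69), and the other pairs lay between 4.37 and 9.53.

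The members and lists were chosen with earlier results of these data known. Per-library values were given for members called with an absolute log2 fold change of 1 or more and at least 1 CPM, the 3 most abundant per role and all targets. Of the other pathway genes, those with the 12 smallest adjusted p, called changes of 2 or more on the log2 scale, CCND1, WLS and PORCN were named; further values were given after they were seen. Alternatives were DESeq2, limma-voom, other scalings and filters, a replicate block, leaving out each library, and counts from the transcript files, summed or corrected for length.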

Additional observations from a re-analysis of the deposited data

How the results depend on the processing

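Of 29 called members, 17 stayed past the threshold in all 15 alternatives, 12 were lost in at least 1, and 0 reversed; of 17 members not called, 4 passed in at least 1. With library size alone, 2055 genes rose and 2438 fell (45.7% of calls higher, against 55.8% and 2383 and 1887) around a median of -0.06, and 16 and 12 members were called. Counts corrected for transcript length gave 1212 falls over all genes and 5 among members. Leaving out 1 library gave 1758 to 2622 rises and 1208 to 2150 falls over all genes (1208 without knockout replicate 3), 14 to 21 and 7 to 13 among members, and 19 to 27 and 9 to 13 among other pathway genes. The causes were not tested. From gene table counts per effective length, the TCF and LEF sum in WT was 57.7 TPM.

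Deviations from the genotype means did not correlate more between libraries of the same replicate number (0.154, -0.0517 and -0.136) than between others (-0.159 to 0.186). With 3 libraries per genotype this check cannot exclude a pairing. A replicate block gave 2541 rises and 2024 falls, 18 and 12 among members and 28 and 14 among other pathway genes, and TCF7L1 passed (adjusted p = 0.0191).

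Signs turned in uncalled genes alone. With library size alone DVL2 was -0.048 and AXIN1 -0.0329, and with no filter DVL2 was -0.0002. Leaving out 1 library gave -0.266 to 0.101 for FZD9, -0.0699 to 0.0657 for LRP5, -0.0087 to 0.184 for LGR4, -0.0458 to 0.0404 for DVL2, -0.0217 to 0.0775 for AXIN1 and -0.0902 to 0.0124 for PORCN. Counts from the transcript files gave 0.111 for PORCN when summed, and 0.466 for SFRP4 and -0.0839 for PRICKLE2 when corrected for length. WNT3 and VANGL2 could not be fitted on them.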

Other observations

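The transcript files split some members into transcripts; these are Salmon estimates given as descriptions, with no test. ROR1-202, the shorter coding transcript of ROR1 (2305 bases, against 5858 for ROR1-201), made up 24.1%, 25% and 25.9% of ROR1 TPM in WT and 12.2%, 18.1% and 9.35% in the knockout. The groups did not overlap, and ROR1-201 went from 75.0 ± 0.877% to 85.6 ± 4.55% (SD, n = 3 each). DKK1-203, a non-coding transcript of DKK1, made up 36.7%, 34.5% and 34.9% of DKK1 TPM in WT and 27.8%, 30.5% and 28.9% in the knockout. Coding DKK1 transcripts alone stood at 58.9 ± 25.7 TPM in WT and 105 ± 11.2 TPM in the knockout.

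For LEF1 the coding transcripts together stood at 9.04, 15.5 and 12.2 TPM in WT and 4.65, 7.56 and 4.48 TPM in the knockout. The groups did not overlap, and their level differed more between genotypes than that of the whole gene (17.8 ± 2.44 and 12.8 ± 0.449 TPM). The split among LEF1 transcripts varied within genotypes, however, and the coding level rests on it. Coding LEF1-201 was at 0.088, 2.53 and 2.83 TPM in WT, and coding LEF1-203 at 0, 2.42 and 0 TPM in the knockout. Non-coding LEF1-206 was at 3.71, 0 and 0 TPM in WT. The main TCF7 transcript, TCF7-201, made up 70.8%, 66.4% and 76.3% of TCF7 TPM in WT and 36.3%, 61.2% and 11.4% in the knockout, a wide spread between knockout libraries. The estimates for WNT5A varied within both genotypes: WNT5A-201 was at 0% in WT replicate 2 and in knockout replicates 2 and 3, and at 55.9% to 77.4% of WNT5A TPM in the other libraries.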
